A study of Macaca mulatta with 304 samples.

Results

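The genes of DNA replication and mitosis were followed in whole blood of rhesus macaques (Macaca mulatta) before and after irradiation of the thorax. They were chosen by symbol from a list of 50 names, and 49 of them have a row among the 21070 genes of the count table. POLD1 was not analysed here. The 49 genes fall into 22 replication genes and 27 mitosis genes, and all of them were among the 13751 genes with enough counts to test. The animals were healthy adults of the Chinese sub-strain, aged 3 to 5 years, 14 females and 14 males. Of the 28 animals, 12 (6 females and 6 males) received 9.8 Gy and 16 (8 females and 8 males) received 10.7 Gy, given to the thorax as photons under anaesthesia. Blood drawn 2 days before irradiation (Day -2, labelled control) was sequenced for 24 animals, 12 of each dose, and 280 samples were drawn afterwards, 151 at 9.8 Gy and 129 at 10.7 Gy. All animals were given tramadol or buprenorphine between Days 4 and 25, and dexamethasone was used in animals with rapid breathing. No animal was left without irradiation, so day, repeated bleeding and irradiation cannot be told apart in any comparison with Day -2. Drugs cannot be told apart from these either, except that the Day 3 samples were drawn before tramadol or buprenorphine began.

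A dividing cell copies its DNA in S phase and separates the copies in mitosis. The MCM proteins form the helicase that opens DNA at origins, the GINS proteins and CDC45 activate it, PCNA is the sliding clamp that holds the polymerases, and RRM1, RRM2, TYMS and TK1 supply nucleotides. Mitosis genes include the kinase CDK1 and its cyclins, the spindle checkpoint kinases BUB1, BUB1B and TTK, kinesin motors such as KIF11 and KIF23, and chromosome proteins such as TOP2A and the CENP proteins. Most mature blood cells do not divide, and transcripts of this kind in blood are known from cycling lymphocytes, circulating precursors and very young red cells.

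The promoters of replication genes are known for E2F sites, and those of many mitosis genes for CCAAT boxes beside the cell cycle homology region, a short element with the core TTTGAA or TTTAAA. These words were searched on both strands in the 250 bases before each gene's outermost annotated start (Mmul_10, RefSeq). At least 1 of the E2F words TTTGGCGC, TTTCGCGC, TTTCCCGC and TTTGCCGC occurred in 5 of 22 replication promoters (22.7%), in 0 of 27 mitosis promoters and in 2.88% of 20782 promoters. TTTGAA or TTTAAA occurred in 3 replication promoters (13.6%), 14 mitosis promoters (51.9%) and 21.1% of all promoters. CCAAT occurred in 8 replication promoters (36.4%), 16 mitosis promoters (59.3%) and 31% of all promoters, and CCAAT together with TTTGAA or TTTAAA in 0 replication promoters, 9 mitosis promoters (33.3%) and 7.3% of all. Windows of 150 bases are shown for 3 MCM genes that were lower at late days and for 3 mitosis genes that were higher early, with the words above, in either orientation, in capitals. They are examples with matches: MCM7, also lower late, and KIF11 and NDC80, also higher early, held none of the words in 250 bases. MKI67 was higher on 1 day only, Day 6, and lower on 3 later days. In MCM5 and MCM6 a pair of E2F words on opposite strands overlaps, and in MKI67 1 TTTGAA overlaps a CCAAT on the opposite strand.
MCM3, chr4:117252236-117252385, plus strand: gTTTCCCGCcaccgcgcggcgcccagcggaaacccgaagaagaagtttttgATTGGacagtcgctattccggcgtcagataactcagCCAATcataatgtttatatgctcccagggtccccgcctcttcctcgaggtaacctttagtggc
MCM5, chr10:16147209-16147358, minus strand: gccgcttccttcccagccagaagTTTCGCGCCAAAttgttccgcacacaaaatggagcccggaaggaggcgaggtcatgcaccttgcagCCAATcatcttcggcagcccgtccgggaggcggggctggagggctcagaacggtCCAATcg
MCM6, chr12:21038176-21038325, minus strand: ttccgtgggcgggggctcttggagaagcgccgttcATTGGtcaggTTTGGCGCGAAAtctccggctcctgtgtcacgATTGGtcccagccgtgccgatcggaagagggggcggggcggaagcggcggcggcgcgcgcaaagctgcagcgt
TOP2A, chr16:51571946-51572095, minus strand: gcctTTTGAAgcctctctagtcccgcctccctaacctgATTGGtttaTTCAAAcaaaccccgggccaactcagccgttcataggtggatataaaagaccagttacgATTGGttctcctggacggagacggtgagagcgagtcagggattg
ASPM, chr1:54537359-54537508, minus strand: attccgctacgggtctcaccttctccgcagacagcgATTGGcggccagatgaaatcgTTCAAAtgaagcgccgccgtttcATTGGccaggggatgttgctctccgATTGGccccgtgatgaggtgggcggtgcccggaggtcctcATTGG
MKI67, chr9:128554145-128554294, minus strand: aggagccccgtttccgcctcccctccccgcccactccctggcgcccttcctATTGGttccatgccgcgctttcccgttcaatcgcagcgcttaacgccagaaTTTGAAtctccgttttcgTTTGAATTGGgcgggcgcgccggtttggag
A match is a run of letters and was not tested as a site of binding.

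Counts per sample ranged from 2840219 to 23638161 (median 8227563). Samples were grouped here into 3 series (A, B and C) by the number in their library names. A and B are the lower and the higher run of these numbers, with a gap between them. The 150 samples of C are those entered with 0 for this number. The labels name no such series, and what the number stands for is not given. The 24 control samples hold 20 of series A and 4 of series C. From Day 3 to Day 15 every animal had its day sample in the series of its own control, on Day 21 this held for 16 of 24 animals, on Days 30 and 40 for 4 animals, and from Day 60 on for too few to fit. Series and day therefore cannot be told apart at the later days. Blood markers were present in the control samples as the label says, with summed levels of 1913 to 12190 CPM (counts scaled to library size) for 14 erythroid markers, 1815 to 4458 for 12 T cell markers and 354 to 2656 for 12 B cell markers. Of the erythroid markers, ALAS2 alone had a control median of 4471 CPM. In bulk blood, fewer cells of a type and less RNA per cell cannot be told apart. The median correlation of a library with the others was 0.946 over all libraries, and 5 libraries stood apart with 0.828 to 0.876. The Day 150 library of animal B1502 (2840219 counts) listed 15 of the 49 genes at 0, where the other 303 libraries listed at most 1. The Day 40 library of animal B2007 had erythroid markers at 333400 CPM and T cell markers at 316.5 CPM. The Day 120 library of animal B2507, which has no control and so entered only the step from Day 90 to Day 120, had T cell markers at 415.9 CPM. The Day 270 libraries of B1503 and B2502, of 6 that day, had erythroid markers at 49330 and 93550 CPM and T cell markers at 492.4 and 519.3 CPM. The comparisons on Days 40, 150 and 270 and from Day 90 to Day 120 are given with and without them. The dose and sex comparisons over Days 30 to 60 include the library of B2007 and were not run without it.

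Before irradiation, PCNA was the most abundant of the 49 genes per length, with a median of 26.8 CPM per kilobase of exons in the 24 control samples. MCM7 (14.7), RRM1 (11.2), MCM5 (10.8), MCM6 (10.1) and MCM3 (7.79) followed, and their ranges overlapped between neighbours. PRC1, a bundler of spindle microtubules, was the most abundant mitosis gene at 5.96 CPM per kilobase. The lowest were MCM10, which loads onto the replication fork, at 0.756 and the checkpoint kinase TTK at 0.684.

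Each day was compared with Day -2 in the same animals by edgeR's quasi-likelihood test on counts with the animal as a block. A gene was taken as higher or lower where its fold was at least 1.5 and its p, adjusted over all 13751 genes by the Benjamini-Hochberg method, did not exceed 0.05. Levels are given as CPM after upper quartile scaling, and changes as log2 fold change ± SE. All of these comparisons share the same control samples. Of the 49 genes, 16 were higher on at least 1 of 15 days and never lower, 13 were lower and never higher, 10 were both at different days, and 10 never passed. In percent, 32.7% of the 49 genes were higher only, 26.5% lower only and 20.4% both, beside 24.8%, 33.4% and 3.65% of all tested genes, and 79.6% passed at least 1 time, beside 61.9%. Among replication genes the split was 6 higher only, 10 lower only and 2 both, and among mitosis genes it was 10 higher only, 3 lower only and 8 both. The genes that never passed were GINS2, GINS3, MCM4 and TK1 among replication genes and AURKB, CCNA2, CDC20, KIF20A, PLK1 and PRC1 among mitosis genes. The plot of changes by gene and day shows the early rise in many mitosis genes and the late fall in several MCM genes, though not past the threshold in MCM4 or MCM10.

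**Figure D1:**
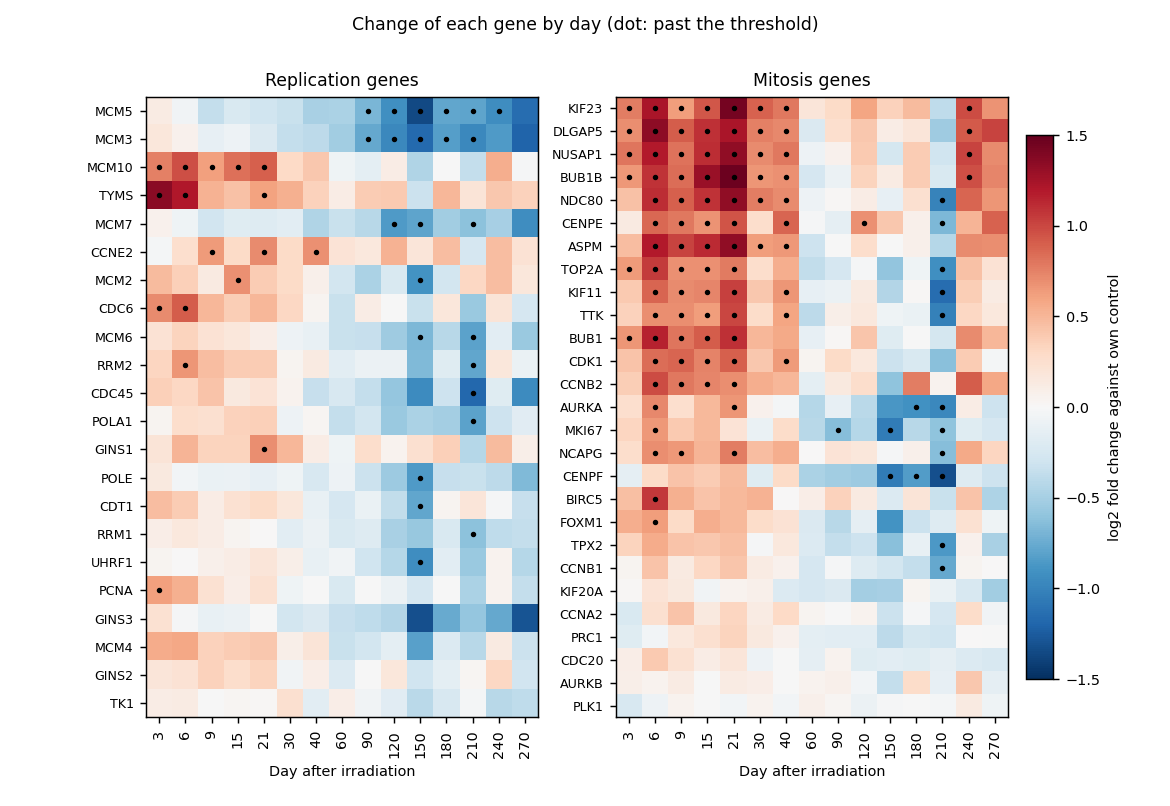
Heatmap of the log2 fold change against the animals' own Day -2 samples for 22 replication genes (left) and 27 mitosis genes (right) on 15 days after irradiation. Dots mark genes past the threshold (edgeR, adjusted p at most 0.05 and fold at least 1.5). KIF23, DLGAP5, NUSAP1 and BUB1B carry dots on 8 days each, all higher, and MCM5 on 6 days, all lower.

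**Figure D2:**
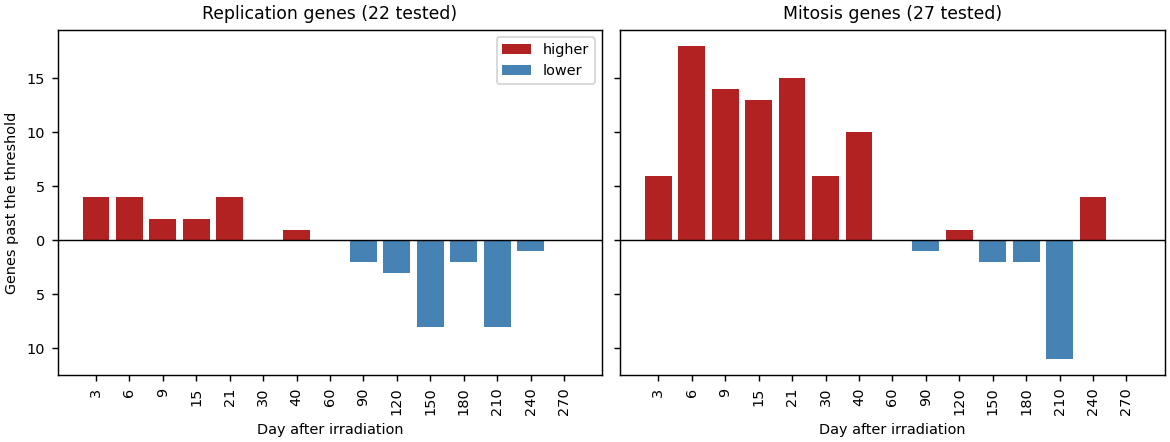
Number of replication genes (left, of 22) and mitosis genes (right, of 27) higher (above the 0 line) or lower (below it) than Day -2 on each day. Mitosis genes reached 18 higher on Day 6 and 11 lower on Day 210, and replication genes reached 8 lower on Days 150 and 210.

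On Day 3, TYMS had the largest change of the 49 genes. TYMS, which makes thymidylate, had 1.962 CPM in the lowest, 5.16 in the median and 9.36 in the highest of 24 control samples, and 5.04, 13.2 and 24.7 CPM on Day 3. It was higher in 24 of 24 animals, and 18 of the Day 3 samples exceeded every control sample (log2 fold change 1.36 ± 0.12, adjusted p = 2.216e-10 by edgeR). MCM10 went from 1.54, 3.45 and 10.5 CPM to 3.28, 6.32 and 13.2 CPM (0.75 ± 0.12). CDC6, which loads the MCM helicase, went from 1.67, 3.48 and 7.32 CPM to 2.42, 6.65 and 11.8 CPM (0.70 ± 0.12). For both genes the groups overlapped, with 22 and 21 of 24 animals higher. PCNA went from 28.5, 39.6 and 56.02 CPM to 37.7, 57.7 and 91.6 CPM, was higher in 24 of 24 animals (0.61 ± 0.07) and had 13 samples above every control sample. These 4 of 22 replication genes were higher and 0 lower, where 6.89% of all tested genes were higher and 4.62% lower. The median of the replication genes was 0.20, beside -0.06 over all tested genes. The 16 genes of the MCM, polymerase, GINS, PCNA, RRM and TYMS families alone had the same median, with 3 higher on each of Days 3, 6 and 21 and 7 lower on Day 210. MCM5 (0.13, adjusted p = 0.148 by edgeR), MCM2 (0.47), RRM2 (0.33), CDT1 (0.46) and TK1 (0.12) did not pass.

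Among mitosis genes 6 of 27 were higher on Day 3 and 0 lower (median 0.35). NUSAP1, a spindle microtubule binder, went from 3.36, 6.06 and 10.8 CPM to 6.09, 11.6 and 17.9 CPM (0.80 ± 0.10, 23 of 24 animals higher). KIF23, a kinesin of the midbody, went from 3.22, 12.5 and 24.6 CPM to 12.8, 19.0 and 52.9 CPM (0.77 ± 0.16, 22 of 24 animals). DLGAP5 (0.70), BUB1 (0.66), BUB1B (0.65) and TOP2A (0.63) also rose. CDK1 (0.43), the proliferation marker MKI67 (0.32) and the cyclin gene CCNB1 (0.04) did not pass. PLK1, a mitotic kinase, was at -0.24 ± 0.05 (adjusted p = 0.0002638 by edgeR) with 21 of 24 animals lower, short of the fold.

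Day 6 had the most genes past the threshold, 22 of 49. Mitosis genes made up 18 of them, all higher (median 0.72, beside -0.06 over all tested genes, of which 6.04% were higher and 5.48% lower). DLGAP5, a spindle protein, had 1.54, 5.95 and 10.6 CPM (lowest, median, highest) in control samples and 5.92, 14.5 and 37.3 CPM on Day 6. It was higher in 23 of 24 animals, with 20 samples above every control sample (1.34 ± 0.17, adjusted p = 4.459e-07 by edgeR). KIF23 reached 11.7, 27.1 and 93.2 CPM (1.22 ± 0.20, 19 of 24 animals higher). TOP2A, the topoisomerase that untangles sister chromatids, went from 5.05, 12.5 and 21.7 CPM to 13.2, 27.9 and 50.4 CPM (1.05 ± 0.14, 23 of 24 animals, 18 samples above every control sample). BIRC5, the survivin gene, went from 1.43, 4.35 and 9.19 CPM to 3.97, 9.96 and 18.6 CPM (1.07 ± 0.14, 23 of 24 animals). NUSAP1 (1.19) and BUB1 (1.16) were higher in 24 of 24 animals.

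CDK1, the kinase that drives entry into mitosis, went from 0.42, 2.64 and 5.08 CPM to 1.49, 5.93 and 10.9 CPM on Day 6 (0.84 ± 0.21, adjusted p = 0.002156 by edgeR). Its groups overlapped widely, and 17 of 24 animals were higher. MKI67 went from 31.6, 51.1 and 131.4 CPM to 40.8, 85.2 and 130.8 CPM (0.65 ± 0.12, 21 of 24 animals), with no sample above the highest control. AURKA, a centrosome kinase, rose by 0.72 and FOXM1, a transcription factor of mitotic genes, by 0.63. The other genes higher that day were ASPM (1.18), NDC80 (1.11), BUB1B (1.08), CCNB2 (0.98), KIF11 (0.87), CENPE (0.86), TTK (0.70) and NCAPG (0.70). Several genes of the same machinery did not pass. CCNB1 was at 0.43, CDC20 at 0.39, CCNA2 at 0.24, KIF20A at 0.21, AURKB at 0.06 (12 of 24 animals higher), PRC1 at -0.04 and PLK1 at -0.07.

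Only 4 of 22 replication genes were higher on Day 6 (median 0.28), and 0 were lower. TYMS was at 4.53, 11.7 and 18.1 CPM (1.20 ± 0.12, 24 of 24 animals higher, 19 samples above every control sample). MCM10 was at 2.61, 7.83 and 12.0 CPM (0.97 ± 0.15) and CDC6 at 4.12, 7.08 and 10.1 CPM (0.91 ± 0.12, 23 of 24 animals). RRM2, the regulated subunit of ribonucleotide reductase, went from 5.86, 13.1 and 21.5 CPM to 9.12, 23.6 and 33.5 CPM (0.66 ± 0.10, 22 of 24 animals). MCM4 was higher in 24 of 24 animals at 0.58 ± 0.08, just under the fold of 1.5, and PCNA was at 0.54. MCM2 (0.36), CDT1 (0.38), TK1 (0.12) and MCM5 (-0.05, adjusted p = 0.611 by edgeR) did not pass. The share of higher genes among all genes past the threshold that day was 52.4%, and 62.7% with TMM scaling.

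From Day 3 to Day 6 in the same animals, 6 mitosis genes rose, namely CCNB2, BIRC5, CENPE, NDC80, ASPM and DLGAP5, and 0 of 22 replication genes did. The median over mitosis genes was 0.42, and 0.836% of all tested genes were higher at this step (2.39% in either direction). From Day 6 to Day 15, TYMS fell by 0.75 and BIRC5 fell by 0.64 on the log2 scale, among 1.33% of genes that were lower (3.49% were higher and 4.82% changed in all). From Day 15 to Day 21 no member passed by edgeR, DESeq2 or limma (1.04% of all genes did by edgeR, in either direction), though 16 had an unadjusted p under 0.05, the largest change being that of KIF23 (0.50 ± 0.12).

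Between 13 and 15 of the 27 mitosis genes were above Day -2 on each of the next days. On Day 9, 14 were higher (median 0.62), on Day 15, 13 (0.54), and on Day 21, 15 (0.69), with 0 lower on each day. Of all tested genes, 5.15% were higher and 2.43% lower on Day 9 (7.58% in all), 5.11% and 0.894% on Day 15 (6.01% in all), and 7.65% and 2.73% on Day 21 (10.4% in all), with all-gene medians of 0.00, -0.04 and 0.00. The spindle checkpoint kinase gene BUB1B had 4.91, 11.3 and 27.4 CPM in control samples, 14.3, 29.5 and 63.2 CPM on Day 15 and 15.4, 31.5 and 105.7 CPM on Day 21. It was higher in 24 of 24 animals on both days (1.29 ± 0.11 and 1.47 ± 0.15, adjusted p = 3.236e-10 and 3.06e-09 by edgeR), and 13 Day 15 samples lay above every control sample. NUSAP1 reached 6.34, 16.5 and 38.3 CPM on Day 21 (1.33 ± 0.13, 24 of 24 animals). KIF23 reached 9.76, 31.97 and 122.6 CPM (1.44 ± 0.16, 23 of 24 animals). NDC80 and ASPM, of the kinetochore and the spindle pole, were at 1.33 each. TOP2A was at 0.78 and CDK1 at 0.90.

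Replication genes were fewer, with 2 higher on Day 9 (median 0.22), 2 on Day 15 (0.20) and 4 on Day 21 (0.26), and 0 lower. On Day 9 these were MCM10, at 2.14, 6.03 and 12.7 CPM (0.61 ± 0.11), and CCNE2, a cyclin of S phase entry, which went from 2.80, 7.41 and 11.9 CPM to 8.24, 10.8 and 16.2 CPM (0.64 ± 0.10, 22 of 24 animals higher). On Day 15 they were MCM10 (0.83) and MCM2. MCM2 went from 5.96, 13.8 and 20.8 CPM to 13.4, 20.5 and 91.6 CPM (0.68 ± 0.13), with 12 samples above every control sample. On Day 21 they were MCM10 (0.90), CCNE2 (0.71), GINS1 (0.69) and TYMS (0.61). GINS1 went from 9.15, 14.6 and 17.8 CPM to 12.7, 23.2 and 51.9 CPM, with 18 samples above every control sample and 23 of 24 animals higher. MCM5 (-0.30) and MCM3 (-0.21) did not pass on Day 21.

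**Figure D3:**
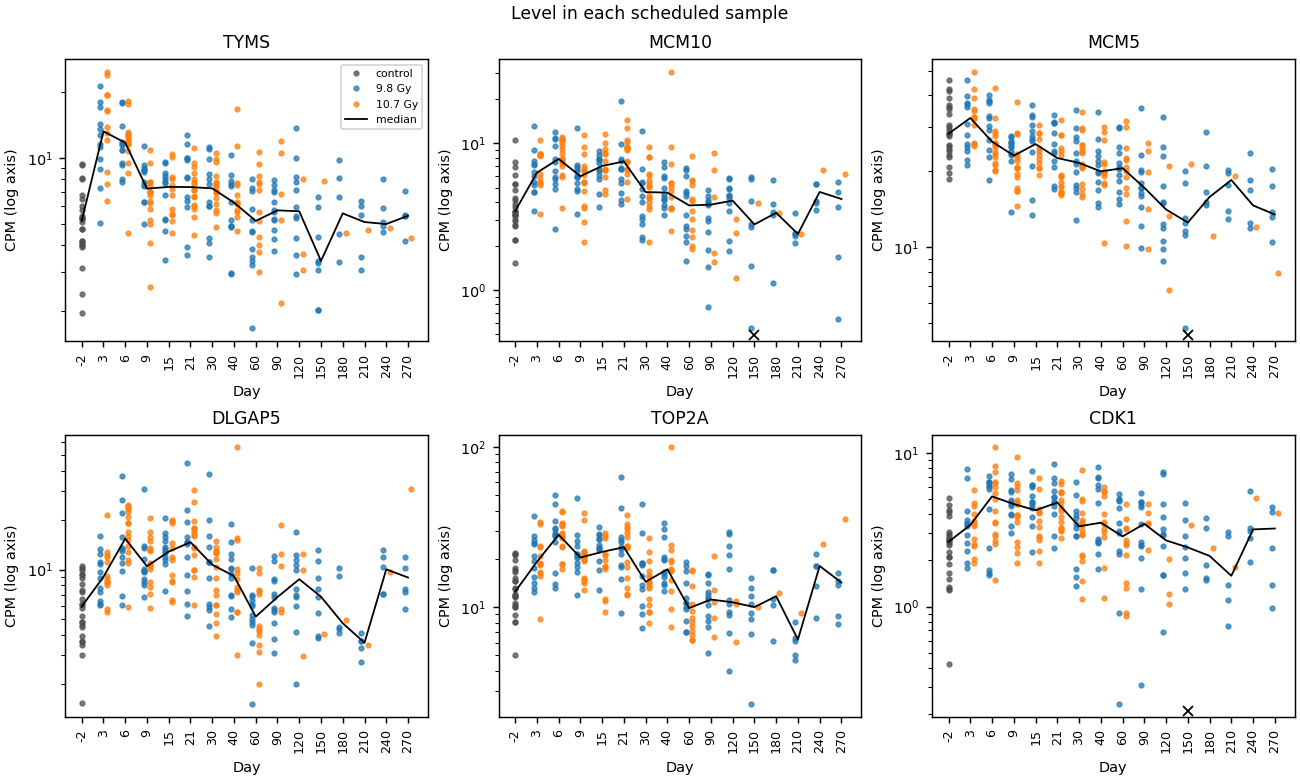
CPM (log axis) of TYMS, MCM10, MCM5, DLGAP5, TOP2A and CDK1 in each sample of a scheduled day, with control samples in grey, 9.8 Gy in blue and 10.7 Gy in orange. The line joins the medians, and a cross at the bottom marks a sample at 0. TYMS is highest on Days 3 and 6, DLGAP5 and TOP2A are high from Day 6 to Day 21, and MCM5 declines to a median of 12.5 CPM on Day 150.

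The rise lasted to Day 30 in 6 mitosis genes (BUB1B, KIF23, NUSAP1, NDC80, ASPM and DLGAP5) and in 0 replication genes, where 4.57% of all genes were higher and 5.90% changed in either direction. The largest change was that of KIF23 (0.88 ± 0.20, adjusted p = 0.001303 by edgeR), which was higher in 18 of 24 animals and above every control sample in 11. NUSAP1 was at 5.20, 10.1 and 20.8 CPM (0.71 ± 0.12, 23 of 24 animals). The list medians were 0.27 for mitosis and 0.05 for replication, beside -0.03 over all genes. In the 4 animals whose samples shared a library series with their control, all at 10.7 Gy, 11 members passed on Day 30 and 1 on Day 40, beside 6.39% and 5.93% of all genes in the same fits.

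On Day 40, 10 mitosis genes (median 0.50) and the replication gene CCNE2 were higher, and 0 of the 49 were lower (4.07% and 2.85% of all genes). CCNE2 was at 4.28, 12.0 and 18.2 CPM (0.69 ± 0.10, adjusted p = 7.423e-06 by edgeR), with 13 samples above every control sample. CENPE, a kinetochore motor, went from 3.22, 14.5 and 50.1 CPM to 6.04, 26.2 and 144 CPM (0.88 ± 0.17, 21 of 24 animals higher). Without the library of B2007, 6 members passed, namely CCNE2, CDK1, CENPE, DLGAP5, KIF23 and NUSAP1, all of which also passed with it, at 5.78% of all genes called in either direction (6.92% with it). ASPM, BUB1B, KIF11, NDC80 and TTK no longer passed.

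On Day 60 no member passed by edgeR, DESeq2 or limma (by edgeR 2.31% of all genes were higher and 1.92% lower, 4.23% in all). At an unadjusted p under 0.05 there were 9 replication and 5 mitosis genes, of 4678 genes in all. The list medians were -0.24 and -0.14, beside -0.03 over all genes. MCM3 was at 7.68, 18.5 and 30.3 CPM, against 19.6, 24.8 and 51.4 CPM in the control samples of the same 21 animals, and 18 animals were lower (-0.52 ± 0.11, adjusted p = 0.002576 by edgeR), short of the fold. TYMS was back within its control range but for 1 sample on each side (0.11 ± 0.14).

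On Day 90, with 15 animals, MCM3 and MCM5 of the MCM helicase were lower. MCM5 went from 18.6, 27.6 and 45.8 CPM to 9.85, 17.2 and 35.5 CPM (-0.68 ± 0.13, adjusted p = 0.001468 by edgeR, 14 of 15 animals lower). MCM3 went from 19.6, 24.1 and 51.4 CPM to 8.06, 15.7 and 24.8 CPM (-0.76 ± 0.14), with 11 samples below every control sample. These 2 replication genes were lower and 0 higher, where 3.19% of all genes were lower and 3.87% higher (7.06% in all). MKI67 was the only mitosis gene past the threshold, at 17.7, 30.8 and 78.9 CPM against 31.6, 45.98 and 131.4 CPM (-0.64 ± 0.19, adjusted p = 0.02114 by edgeR). The medians were -0.23 for replication and -0.01 for mitosis. With library series as a term in 1 fit over all samples, 0 members passed on this day.

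On Day 120 (12 animals, 11 of them at 9.8 Gy), MCM3, MCM5 and MCM7 were lower in 12 of 12 animals. MCM5 went from 18.6, 27.8 and 45.8 CPM to 8.83, 14.1 and 32.9 CPM (-0.92 ± 0.13, adjusted p = 0.0001035 by edgeR). MCM7 went from 38.1, 53.7 and 91.9 CPM to 18.6, 30.5 and 45.1 CPM (-0.85 ± 0.12), and MCM3 reached 7.92, 13.6 and 25.8 CPM (-0.97 ± 0.16) with 10 samples below every control sample. The background was wide that day, since 19.1% of all tested genes were lower and 12.7% higher, so the 3 of 22 replication genes that fell (median -0.30, beside -0.15 over all genes) are no larger a share than that of all genes. With DESeq2 scaling the all-gene median moved to -0.01 and the share of higher genes among all calls from 39.9% to 55.5%. CENPE was the only mitosis gene past the threshold and was higher, at 12.9, 30.4 and 49.1 CPM against 8.43, 17.6 and 50.1 CPM (0.68 ± 0.21, adjusted p = 0.01492 by edgeR, 10 of 12 animals). The median of the mitosis genes was 0.11. With library series as a term, 11 members passed beside 36.1% of all genes, with BUB1 (0.64), BUB1B (0.61), CENPE (0.77), DLGAP5 (0.65) and KIF23 (0.67) higher and MCM3, MCM5, MCM7, POLA1, RRM1 and KIF20A lower. From Day 90 to Day 120, CENPE alone among the 49 rose (0.79, adjusted p = 0.0401 by edgeR, beside 7.79% of all genes). Without the library of B2507 it did not (0.71, adjusted p = 0.0789 by edgeR).

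On Day 150 (9 animals, 1 at 10.7 Gy), 8 replication genes and 2 mitosis genes were lower and 0 higher, beside 19.5% and 12.0% of all genes. The replication median of -0.67 lay below the all-gene median of -0.17, and the mitosis median was -0.27. MCM5 was at 0, 12.5 and 21.4 CPM against 18.6, 27.6 and 45.8 CPM (-1.36 ± 0.38, adjusted p = 0.01025 by edgeR), with 7 of 9 samples below every control sample. UHRF1, which couples DNA methylation to replication, was at 4.02, 7.16 and 20.01 CPM against 11.1, 17.9 and 21.5 CPM (-0.93 ± 0.25). MCM2 (-0.90), MCM3 (-1.17), MCM6 (-0.68), MCM7 (-0.79), the polymerase gene POLE (-0.85) and the licensing factor gene CDT1 (-0.78) were the others. MKI67 and CENPF were at -1.05 each. GINS3 was at -1.32 but did not pass (adjusted p = 0.0602 by edgeR). Without the library of B1502, 9 members passed, 7 of them also with it, at 31.6% of all genes called in either direction (31.5% with it). MCM3 (-1.15), MCM5 (-1.11), MCM7 (-0.81), POLE (-0.63), UHRF1 (-0.80), MKI67 (-0.88) and CENPF (-0.88) stayed, while MCM2, MCM6 and CDT1 did not pass and RRM2 (-0.77) and TOP2A (-0.73) did. With library series as a term, 6 members passed beside 34.1% of all genes, MCM3, MCM5, RRM1 and UHRF1 lower and BUB1B (0.70) and CENPE (0.72) higher.

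The same 6 animals, 5 at 9.8 Gy and 1 at 10.7 Gy, gave the samples of Days 180 to 270. By the paper, animals died or were euthanized in the course of the study. The later days therefore rest on animals that lived on, and survival and illness cannot be told apart from day there. On Day 180, MCM3 (-0.83), MCM5 (-0.78), AURKA (-0.91) and CENPF (-0.84) were lower and 0 members higher, beside 9.86% and 8.81% of all genes. AURKA went from 3.53, 5.25 and 6.19 CPM to 1.68, 2.57 and 4.53 CPM, lower in 6 of 6 animals (adjusted p = 0.01932 by edgeR), with 5 samples below every control sample. The medians were -0.22 for replication and -0.00 for mitosis, beside -0.06 over all genes. With DESeq2 the mitosis median was 0.07. With library series as a term only MCM5 passed (-0.61), beside 16.4% of all genes.

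Day 210 had the most genes lower, 8 of 22 replication genes (median -0.52) and 11 of 27 mitosis genes (median -0.42), with 0 higher. Over all genes the median was -0.13, with 16.9% lower and 12.8% higher (29.8% in all). CENPF, a kinetochore protein, went from 14.8, 19.3 and 25.5 CPM to 6.05, 7.26 and 11.4 CPM (-1.32 ± 0.19, adjusted p = 0.0003827 by edgeR). The spindle motor KIF11 went from 7.23, 9.99 and 13.6 CPM to 3.58, 4.66 and 5.28 CPM (-1.14 ± 0.19). TOP2A went from 8.04, 12.5 and 17.6 CPM to 4.67, 6.28 and 9.25 CPM (-0.92 ± 0.19). The Day 210 samples of CENPF and KIF11 did not overlap the control samples of these animals, and those of TOP2A did in 2 of 6. Overlap was looked at in the listed genes only, so the share of all tested genes without overlap is not known on any day.

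MCM5 on Day 210 was at 12.9, 18.5 and 20.1 CPM against 23.97, 27.8 and 39.01 CPM (-0.79 ± 0.14, adjusted p = 0.00108 by edgeR). MCM6 was at 12.6, 14.9 and 22.2 CPM against 22.8, 28.2 and 34.5 CPM (-0.80 ± 0.16). POLA1, the catalytic subunit of the priming polymerase, was at 11.9, 15.0 and 17.5 CPM against 22.9, 25.6 and 29.0 CPM (-0.80 ± 0.14). These 3 genes, MCM3 (-0.97) and RRM1 (-0.61) were lower in 6 of 6 animals with no overlap between the groups. How many of all tested genes separated in this way was not counted. MCM7 (-0.61), RRM2 (-0.78) and CDC45 (-1.18) were the other replication genes that fell, and CDC45 was low, at 0 to 2.14 CPM. The other mitosis genes that fell were TTK (-1.01), NDC80 (-1.003), AURKA (-0.97), TPX2 (-0.86), CCNB1 (-0.77), CENPE (-0.67), NCAPG (-0.64) and MKI67 (-0.60). CENPE did not pass without B1003, B1502, B1505 or B2502, nor MKI67 without B1502, B1503 or B1505. CDK1 was at -0.63 and did not pass (adjusted p = 0.122 by edgeR). With library series as a term, MCM7, RRM2, TOP2A, CENPE and MKI67 did not pass on Day 210 and GINS1 (-0.60) did, beside 33% of all genes. With DESeq2 scaling the all-gene median was -0.01 and the share of higher genes among all calls moved from 43.1% to 57.9%.

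On Day 240, 1 replication gene and 4 mitosis genes were past the threshold. MCM5 was lower, at 11.9, 14.6 and 23.6 CPM (-0.93 ± 0.20, adjusted p = 0.025 by edgeR), again with no overlap with its control samples. It was the only replication gene past the threshold, a share near the 3.51% of all genes that were lower. Among mitosis genes 4 were higher (3.26% of all genes) and 0 lower, and 6.76% of all genes changed in either direction. DLGAP5 went from 3.45, 4.70 and 9.33 CPM to 7.09, 10.0 and 13.2 CPM (0.92 ± 0.24, adjusted p = 0.0435 by edgeR), KIF23 from 5.77, 12.7 and 17.4 CPM to 13.1, 23.7 and 37.01 CPM (0.98 ± 0.25), and NUSAP1 from 4.74, 5.39 and 8.64 CPM to 6.91, 11.2 and 21.0 CPM (1.01 ± 0.24). These 3 were higher in 6 of 6 animals, with overlapping ranges. BUB1B (0.97) was higher in 5 of 6 animals. The medians were 0.02 for replication, 0.38 for mitosis and -0.06 over all genes. Each of the 6 animals mattered to this count, which was 0 without B1004 or B1503, 1 without B1003 or B2502 and 3 without B1502 or B1505, while 10 members passed with library series as a term, beside 25% of all genes.

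Set side by side in the same 6 animals without a test, 6 of 6 had more TOP2A on Day 240 than on Day 210 (median log2 difference 1.27). The same held for CENPF (1.18) and RRM2 (1.23), whereas MCM5 was higher in 1 animal (-0.12) and TK1 in 0. On Day 270 no member passed by edgeR or limma, and by edgeR 0% of all genes were higher and 0.00727% lower. By DESeq2 6 members passed, 3 higher and 3 lower, beside 1366 higher and 978 lower among all genes in that fit. At an unadjusted p under 0.05 there were 6 replication and 5 mitosis genes, of 4060 genes in all. MCM5 was at 7.87, 13.5 and 20.4 CPM (-1.14 ± 0.23) and MCM3 at 7.60, 10.4 and 20.5 CPM (-1.20 ± 0.28), both below every control sample of these animals in 6 of 6 (adjusted p = 0.0751 each by edgeR), and DLGAP5 was at 1.01 ± 0.36 (adjusted p = 0.105 by edgeR). With library series as a term 12 members passed on this day, beside 32.3% of all genes, and without animal B1003 3 did. Without B1503 and B2502, whose libraries stood apart, MCM3 (-0.87), MCM5 (-0.96) and MCM7 (-0.70) passed and were lower, beside 3.76% of all genes.

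Animals were compared with their own Day -2 sample by the mean log2 CPM over each list. On Day 3 the mean over replication genes was higher in 24 of 24 animals, by 0.01 to 0.88, and the mean over mitosis genes in 19 of 24. On Days 9 and 15 the mitosis mean was higher in 24 of 24 animals, by 0.03 to 1.17 and by 0.02 to 1.12. On Day 120 it ranged from -0.95 to 1.04, with 7 of 12 animals higher. On Day 210 both means were lower in 6 of 6 animals, by -0.74 to -0.29 for replication and -0.90 to -0.18 for mitosis, and on Day 240 the mitosis mean was higher in 6 of 6, by 0.00 to 0.85.

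**Figure D4:**
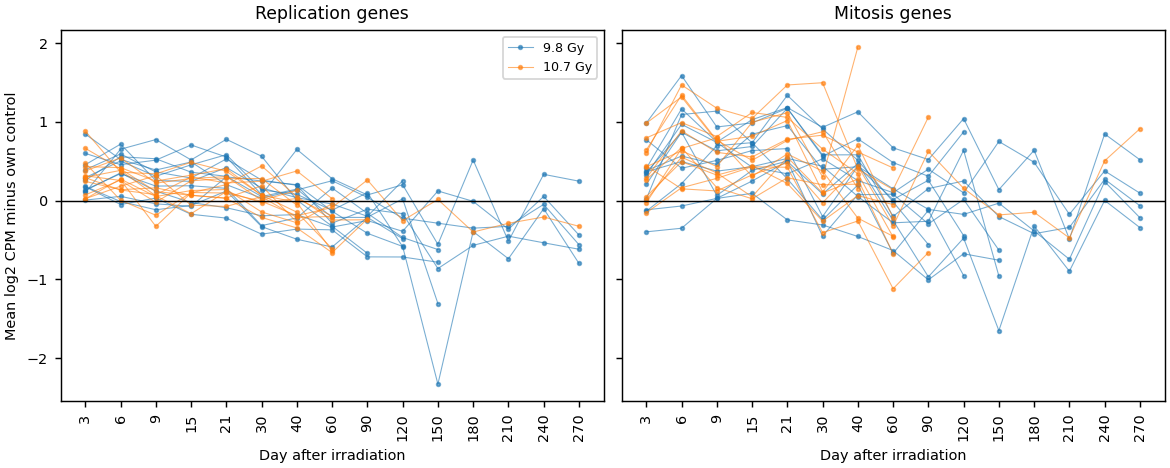
Mean log2 CPM over 22 replication genes (left) and 27 mitosis genes (right) minus the animal's own Day -2 sample, by day, with 1 line per animal (blue 9.8 Gy, orange 10.7 Gy). Mitosis means lie above 0 in 24 of 24 animals on Days 9 and 15 and spread on both sides of 0 from Day 60 to Day 180. The lowest replication point is B1502 on Day 150 at -2.33, and the highest mitosis point is B2007 on Day 40 at 1.95.

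Markers of blood cell types moved over the same days. Of 14 erythroid markers, 13 were higher on Day 3 and 14 on each of Days 6, 15 and 21. Only 4 were higher on Day 40 and 0 on Day 60, but 9 were on Day 210 and 10 on Day 240. Their summed level was 1913, 6601 and 12190 CPM (lowest, median, highest) in control samples, 6802, 16010 and 37810 CPM on Day 6, 9604, 25660 and 90570 CPM on Day 15, 1687, 4899 and 37310 CPM on Day 60 and 6396, 13820 and 28610 CPM on Day 210. From Day 6 to Day 21 at least 13 erythroid markers and 13 mitosis genes were higher. On Day 210, 9 erythroid markers were higher and 2 lower while 11 mitosis genes were lower, and on Day 240, 10 erythroid markers and 4 mitosis genes were higher. Of 12 B cell markers, 12 were lower on Day 3, 11 on Day 6 and 1 on Day 30, then 11 on each of Days 120 to 240, with a summed level of 354, 1487 and 2656 CPM in control samples and 85.7, 309 and 475 CPM on Day 210. Of 12 T cell markers, 0 passed up to Day 30, 7 were lower on Day 40, 10 on Days 120 and 150 and 7 on Day 210. Neutrophil precursor markers were higher on Day 120 (6 of 7 tested) and Day 210 (5 of 7), platelet markers on Day 3 (7 of 7) and Day 210 (6 of 7), and monocyte markers on Day 3 (8 of 10), Day 150 (5), Day 180 (7) and Day 210 (6). Of 5 blood progenitor markers tested, 0 passed on Day 6, 2 were lower on Day 21 and 0 passed on Day 210. Among 11 plasma cell markers, 1 was higher on Day 6 and 3 were lower on Day 210. Among 10 cytotoxic lymphocyte markers, 2 were lower on Day 6 and 4 on Day 9, and 1 was higher and 1 lower on Day 210. The part of any of these cells in the changes of the replication and mitosis genes was not tested.

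**Figure D5:**
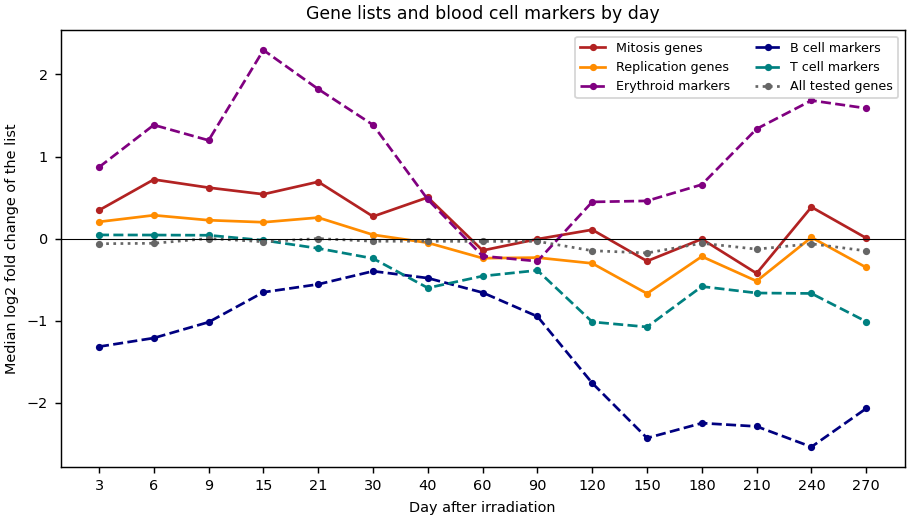
Median log2 fold change against Day -2 by day for mitosis genes, replication genes and all tested genes, and for erythroid, B cell and T cell markers (dashed). Erythroid markers peak at 2.30 on Day 15 and reach 1.34 on Day 210, where the mitosis median is -0.42 and the B cell median -2.29.

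Other genes of the same processes, from lists of known members, were counted beside the 49. Of 32 other mitosis genes, 20 were higher on Day 6 (median 0.70), 15 on Day 21 and 0 on Day 210, when 7 were lower (median -0.52). KIF15, a second spindle kinesin (1.42 ± 0.23, adjusted p = 1.3e-05 by edgeR), and SPC25, an NDC80 complex subunit (1.39 ± 0.26), changed most on Day 6. Of 30 other replication genes, 7 were higher on Day 6 (median 0.22), 10 on Day 21 and 0 on Day 210, when 10 were lower (median -0.48). Of 32 cell cycle regulators, 5 were higher on Day 6, and on Day 210 4 were higher and 4 lower. Beside these counts, 6.04% of all tested genes were higher on Day 6 and 7.65% on Day 21. On Day 210, 12.8% of all tested genes were higher and 16.9% lower, so the regulators changed in no larger a share than all genes. CDKN1A, the p53 target that inhibits cyclin kinases, went from 33.5, 46.6 and 84.7 CPM to 36.4, 66.1 and 134.5 CPM on Day 6 (0.44, adjusted p = 2.445e-06 by edgeR), short of the fold. The transcription factor genes E2F1 (0.23) and MYBL2 (0.22) did not pass either.

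The doses and sexes were compared over Days 3 to 21 in the 24 animals with a control. No library series term was fitted here, although on Day 21 series was uneven between doses. The Day 21 sample was in the series of the control in 12 of 12 animals at 9.8 Gy and in 4 of 12 at 10.7 Gy. At 9.8 Gy 14 of 27 mitosis genes were higher (median 0.61) and at 10.7 Gy 14 (0.63), with 4 and 3 replication genes, beside 5.61% and 5.82% of all genes. The difference between doses passed for 0 of the 49 genes by edgeR or DESeq2 (0% of all genes by edgeR), and 1 had an unadjusted p under 0.05, MCM4 (-0.26 at 10.7 minus 9.8 Gy, 95% interval -0.51 to -0.01). The interval for TYMS was -0.50 to 0.31, for DLGAP5 -0.18 to 0.70 and for TOP2A -0.37 to 0.34, so log2 differences within these bounds could not be told from 0. Females had 15 and males 14 mitosis genes higher and 2 and 3 replication genes, beside 6.00% and 5.30% of all genes, and the difference between sexes passed for 0 of the 49 genes by edgeR or DESeq2, with 0 at an unadjusted p under 0.05. For MCM10 its interval (males minus females) was -0.76 to 0.03. Over Days 30 to 60, RRM1 was the only member whose change differed by dose (-0.32, 95% interval -0.50 to -0.15, adjusted p = 0.0249 by edgeR, beside 7.92% of all genes). RRM1, the large subunit of ribonucleotide reductase, was at 0.01 ± 0.07 at 9.8 Gy and -0.32 ± 0.06 at 10.7 Gy, and with TMM scaling 0 members passed. The Day 40 library of B2007, which stood apart, was part of this comparison, and no fit without it was run. By sex 0 members passed over Days 30 to 60, and CDT1 had an unadjusted p under 0.05.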

How the data were processed

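RNA of whole blood was sequenced by the authors after removal of ribosomal RNA (stranded total RNA libraries). They trimmed the reads with cutadapt 2.10, aligned them to Mmul_10 by STAR 2.7.6a and assigned them to RefSeq genes by Subread 2.0.1, as the paper and the submitters' processing notes say. The strand setting of the counting is not given in the sources used here. The count table the authors deposited gives raw counts for 21070 genes in 304 samples, and their second deposited table holds log2 values of 16730 genes, used here as an alternative only. Each sample's animal, day and dose came from its labels, and 8 draws outside the schedule entered no comparison.

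A gene was tested where 80% or more of the samples held 3 or more counts (13751 genes). Each of 15 days was compared with Day -2 in the same animals (24 on Days 3 to 40, then 21, 15, 12 and 9, and 6 from Day 180) in edgeR 4.0.16 (R 4.3.3) by quasi-likelihood, after scaling to the upper quartile and with p-values adjusted by Benjamini-Hochberg. Intervals are 95% normal intervals from the SE. The animal was the block, since samples of 1 animal are paired by the animal number in the labels. Differences by dose and sex were interaction terms. Alternatives were TMM scaling, DESeq2 1.42.0, no filter, no block, limma 3.58.1 on the deposited log2 values, samples of 1 library series, 1 fit over all samples with library series, and leaving out animals. The tests were run on simulated data: with 200 of 13751 genes changed by a fold of 2, edgeR called 192 of them with 24 animals (Day 6) and 150 with 6 animals (Day 210). Values are printed for 16 members fixed by role, for those past the threshold on most days or with the largest changes on Days 3, 6 and 120, and for those never past it; further members named with values were chosen after their values were seen. The members and lists were chosen with earlier results of these data known. CPM per kilobase used the merged exons of each gene.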

Additional observations from a re-analysis of the deposited data

Results flagged for a closer look

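A single sample stood apart within its group. The mean log2 CPM over the 22 replication genes was 1.07 in the Day 150 library of animal B1502, and between 2.62 and 3.80 in the other 7 animals at 9.8 Gy that day. Its gap to the nearest sample exceeded Dixon's 95% critical value, in 1 of 22 groups examined, and chance alone flags about 1 in 20 groups. This library had 2840219 counts, the fewest of all libraries, and listed 8 replication and 7 mitosis genes at 0. The part of depth in this value was not tested.

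The change of RRM1 over Days 30 to 60 differed between doses by -0.32 (10.7 minus 9.8 Gy, adjusted p = 0.0249 by edgeR). On those days the samples came from other library series than most of the controls, and the difference did not pass with TMM scaling. The 10.7 Gy samples include the Day 40 library of B2007, which stood apart, and no fit without it was run.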

How the results depend on the processing

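The animal block paired each sample with its own control. With no replicate block, 2 of 49 members passed on Day 240 (5 with it) and 0 from Day 90 to Day 120 (1 with it), the counts of the other 17 comparisons stayed within 1.5 times, and of 81 results for single genes 11 no longer passed. Within 1 library series, 11 members passed on Day 30 (main 6) and 1 on Day 40 (main 11). With library series in 1 fit over all samples, the counts were 0 (main 3) for Day 90, 11 (4) for Day 120, 6 (10) for Day 150, 1 (4) for Day 180, 10 (5) for Day 240 and 12 (0) for Day 270. Without the filter they were 6 on Day 150 and 3 on Day 270, with DESeq2 10 on Day 240 and 6 on Day 270, and with TMM scaling 0 for Days 30 to 60 by dose (1). Among all genes DESeq2 called 1275 higher and 914 lower on Day 240, and 1366 and 978 on Day 270. Leaving out 1 animal at a time gave 3 to 6 for Day 180, 13 to 20 for Day 210 and 0 to 3 for both Day 240 and Day 270. Alternatives chosen after seeing the data, each without 1 library, gave 6 on Day 40, 9 on Day 150 and 0 from Day 90 to Day 120, and 3 on Day 270 without both B1503 and B2502. None of these 81 results, which cover the members named by rule, changed sign in these fits, and the causes were not tested. Other members printed with values, such as BUB1B, CENPF and KIF11, were not part of this check. List medians near 0 did change sign: with DESeq2 the replication median of Day 40 (-0.05 to 0.00) and the mitosis medians of Day 90 (-0.01 to 0.02) and Day 180 (-0.00 to 0.07), and with the 16 family genes alone the replication medians of Day 30 (0.05 to -0.07), Day 40 (-0.05 to 0.01) and Day 240 (0.02 to -0.05). With series as a term, calls on Day 150 went from 0 higher and 10 lower to 2 and 4, and on Day 270 they were 7 and 5. Genes under about 3 CPM, such as CDC45 and TTK, rest on few counts. Days 180 to 270 rest on 6 animals.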

Other observations

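Blood of 8 draws outside the schedule (Days 71 to 172) entered no comparison. Each was the last sample of its animal. By the paper, a final sample was taken from animals euthanized for severe acute radiation syndrome between scheduled draws. The labels do not say why each sample was drawn, and illness cannot be told apart from day in them. In the 7 of them with a control, the mean log2 CPM over replication genes was lower than the animal's own Day -2 sample in 7 of 7, by -0.05 (Day 102) to -0.89 (Day 160). The mean over mitosis genes was lower in 6 of 7, down to -1.25 on Day 160, and higher by 0.42 in the 10.7 Gy animal of Day 94. The eighth draw, on Day 129, had no control and stood at 3.21 for replication and 2.59 for mitosis genes on the log2 CPM scale.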
